A study of Rattus norvegicus with 16 samples.

Results

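The genes described here encode the matrix metalloproteinases (Mmp), the ADAMTS proteases (a disintegrin and metalloproteinase with thrombospondin motifs, Adamts) and the tissue inhibitors of metalloproteinases (Timp) of the rat. They were taken by symbol alone, as every row of the deposited fragment table whose gene name begins with Mmp, Timp or Adamts followed by a digit. That gave 38 of the 17147 genes of the table, of which 21 were Mmp, 13 Adamts and 4 Timp genes. A direction of change is described for the 26 genes with a mean of at least 10 fragments per library, all of which entered the test. The other 12 are given as counts: 10 were detected below that mean, and Mmp1 and Mmp28 had no fragment in any library. On either side of this threshold, Mmp16 had a mean of 10.4 and Mmp13 of 25.8 fragments, and Adamts3 had 4.88 and Mmp3 4.62.

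Messenger RNA was sequenced from the supraspinatus, one of the rotator cuff muscles of the shoulder, of Sprague Dawley rats. Control muscle was unoperated and is called 0 days. In the other 3 groups the supraspinatus was torn through its full thickness on both sides and the suprascapular nerve, which supplies it, was cut out, and the muscle was taken 10, 30 or 60 days later. Each group has 4 libraries, numbered here in the order of the authors' column names. Each operated group carries the tear and the nerve lesion together, so the effects of the 2 lesions cannot be told apart, and no sham-operated muscle is among the samples. Age and sex are not given in the sources used here, nor is it stated whether any libraries share a rat. The p-values therefore measure the spread between these libraries, which may in part be technical.

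The libraries held 17.2 to 39.9 M fragments, and the 60-day libraries, at 17.2 to 22.4 M fragments, were all shallower than the others. Levels are given in CPM, the fragments of a gene relative to its library's total after TMM scaling (edgeR's trimmed mean of M-values), and differences as log2 fold changes ± standard error (SE). A gene is called higher or lower where edgeR's quasi-likelihood test gave an adjusted p under 0.05 over the 11658 genes tested. The muscle fibre markers, of which 7 of 8 are in the table, summed to 213362 to 235494 CPM at 0 days, 59676 to 62621 at 10 days, 96812 to 138847 at 30 days and 117692 to 140208 at 60 days. Among these markers Mb went the other way, with 11266 to 14183 CPM at 0 days and 15480 to 20540 at 10 days. All its operated libraries lay above control. Scaling matters here: with plain library totals in place of TMM, the median of all genes against 0 days moved up by 0.66, 0.49 and 0.41 on the log2 scale at 10, 30 and 60 days. All levels are relative to the RNA sequenced from the muscle and are not amounts per muscle. Fewer cells of a type and less RNA per cell cannot be told apart in them. Gene lengths were not used, so levels are compared between libraries and not between genes.

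Matrix metalloproteinases are zinc-dependent proteases made as inactive precursors, most of them secreted and some anchored to the cell surface, that cut collagens, gelatin, elastin, laminin and other parts of the extracellular matrix. ADAMTS proteases trim procollagens or cut proteoglycans such as versican and aggrecan, and the TIMPs bind the active sites of these enzymes and block them. In skeletal muscle they take part in the turnover of the basement membrane and connective tissue around fibres, with macrophages and fibroblasts as well known sources.

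Of the 38 genes, 29 have a promoter in the RefSeq table for the rat build GRCr8, and 9 lie next to each other on chromosome 8 in the order Mmp13, Mmp12, Mmp3, Mmp1, Mmp10, Mmp8, Mmp27, Mmp20 and Mmp7, with Mmp1b, which is not in the fragment table, between Mmp12 and Mmp3. Coordinates below are of GRCr8, whereas the fragments were counted on rn5. The last 150 bases before the annotated start are shown for Mmp13 (chr8:12782679-12782828), Mmp12 (chr8:12866502-12866651) and Mmp3 (chr8:12925131-12925280), all on the plus strand, because these neighbours had 2 or fewer fragments in the 4 unoperated libraries together and 55 or more at 10 days. Capitals mark matches to the letters of an AP-1 site (TGANTCA), for which both strands were searched. They also mark matches to the letters of a TATA box (TATAAA) on the strand of the gene.
Mmp13: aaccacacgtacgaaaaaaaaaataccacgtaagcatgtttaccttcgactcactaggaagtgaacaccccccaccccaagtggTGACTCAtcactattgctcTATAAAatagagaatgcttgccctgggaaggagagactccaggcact
Mmp12: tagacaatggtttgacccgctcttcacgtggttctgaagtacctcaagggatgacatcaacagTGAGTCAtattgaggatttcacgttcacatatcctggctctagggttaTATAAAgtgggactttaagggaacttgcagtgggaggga
Mmp3: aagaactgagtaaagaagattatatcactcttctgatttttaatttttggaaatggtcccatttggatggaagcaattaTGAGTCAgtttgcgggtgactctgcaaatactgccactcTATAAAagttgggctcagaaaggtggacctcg
The AP-1 letters begin 66 bases before the start in Mmp13, 87 in Mmp12 and 71 in Mmp3, and the TATA letters 47, 39 and 32 bases before it. In the 250 bases before the start, TGANTCA was found in 7 of the 29 promoters (24.1%) and in 6.34% of 33469 RefSeq promoters of that length. All 7 belong to this block on chromosome 8, namely Mmp1, Mmp3, Mmp7, Mmp10, Mmp12, Mmp13 and Mmp20, and the other 2 genes of the block, Mmp8 and Mmp27, had no match in the window. TATAAA was found in 9 of the 29 (31%) against 8.06% of all. The GC box GGGCGG, searched on both strands, was found in 14 (48.3%) against 30.5%, the ETS letters AGGAAG in 10 (34.5%) against 29.5% and the E-box CAGCTG in 4 (13.8%) against 12%. A match is a description of these letters and not evidence of binding.

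Most of the 26 genes were higher after the operation than in unoperated muscle. At 10 days 15 were higher and 6 lower, at 30 days 17 were higher and 4 lower, and at 60 days 18 were higher and 2 lower. Mmp9, Mmp12, Mmp13 and Mmp16 had 5, 2, 0 and 18 fragments in the 4 unoperated libraries together. They reached the mean of 10 only through operated libraries, so they could hardly be called lower. Mmp9, Mmp12 and Mmp13 are among the higher genes at each time, and Mmp16 at 30 days. Among all genes tested, 33.3% were called higher and 29.4% lower at 10 days, 33.7% and 30.9% at 30 days, and 29.9% and 29.1% at 60 days. The median log2 difference of the 26 genes was 0.82 at 10 days, 1.17 at 30 days and 1.01 at 60 days. For all genes tested it was 0.061, 0.046 and 0.040. The median of the 26 includes Mmp9, Mmp12, Mmp13 and Mmp16. Setting Mmp12 and Mmp13 at their ratio or bound in fragments could not move it, because both stay above it. With library totals as the scaling, 19 were higher and 4 lower at 10 days, so the share of higher calls moved from 71.4% to 82.6%. A joint test over the 4 times called 24 of the 26, against 84.7% of all genes tested. Adamts7 (adjusted p = 0.133) and Mmp16 (adjusted p = 0.0598) were not called by it.

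By pattern, 13 genes were higher at all 3 times: Mmp2, Mmp9, Mmp11, Mmp12, Mmp13, Mmp14, Mmp19, Mmp23, Timp1, Timp2, Adamts10, Adamts14 and Adamts15. Of these, Mmp9, Mmp12 and Mmp13 entered the described genes only through the operated libraries. Adamts1 and Mmp15 were lower at all 3 times. Among all genes tested, 16.6% were higher and 15.6% lower at all 3. Mmp24 was the only gene called in both directions, lower at 10 and higher at 60 days. None of the 26 lacked a call at every time. The mean level was highest at 0 days for 4 genes, at 10 days for 7, at 30 days for 7 and at 60 days for 8.

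**Figure D1:**
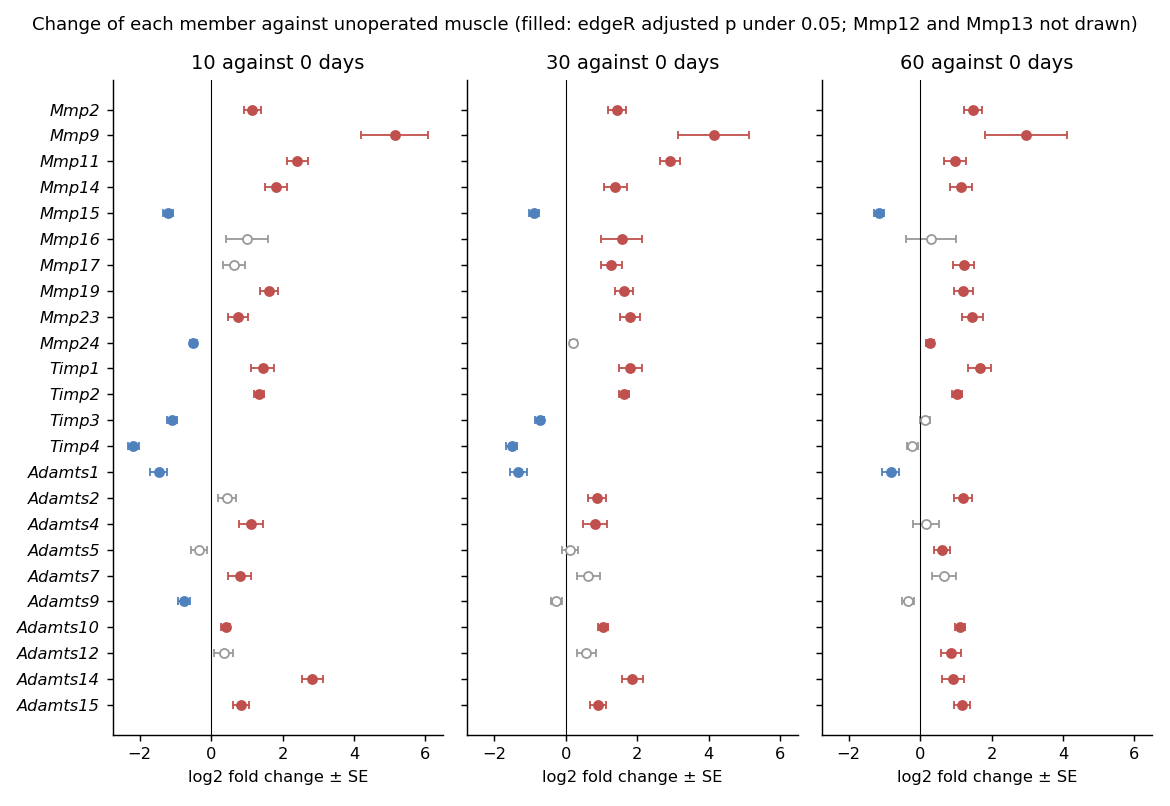
Log2 fold change against unoperated muscle ± SE (horizontal axis) for each described Mmp, Timp and Adamts gene at 10, 30 and 60 days, from edgeR on 4 libraries per time. Filled points have an adjusted p under 0.05 (red higher, blue lower) and open grey points do not. Mmp12 and Mmp13 are left out because they were at or near 0 in unoperated muscle. Timp3 and Timp4 are blue at 10 and 30 days and open at 60 days, and Adamts1 and Mmp15 are blue in all 3 panels.

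The 4 inhibitors split into pairs. Timp1 and Timp2 rose and stayed above control at each time, whereas Timp3 and Timp4 fell at 10 and 30 days and were not called different from control at 60 days. Timp1, the inducible inhibitor, measured 2.19, 3.81, 4.33 and 2.78 CPM in the unoperated libraries, 12.0, 4.99, 9.42 and 9.77 at 10 days, 14.6, 13.0, 9.76 and 8.88 at 30 days, and 7.33, 6.34, 13.4 and 14.97 at 60 days. Every operated library lay above every unoperated one, and the 60-day libraries fell into a lower and a higher pair. Timp1 was higher by 1.45 ± 0.32 at 10 days (adjusted p = 0.000972), 1.81 ± 0.32 at 30 days (adjusted p = 0.000156) and 1.67 ± 0.32 at 60 days (adjusted p = 0.000438). Timp2, which both inhibits Mmp2 and, with Mmp14, helps to activate its precursor, measured 33.5, 43.8, 38.8 and 32.1 CPM at 0 days, 101, 88.4, 84.0 and 102 at 10 days, 127, 112, 105 and 115 at 30 days, and 75.4, 55.0, 79.5 and 94.4 at 60 days. No operated library overlapped the control range, and the log2 difference was 1.34 ± 0.14 (adjusted p = 3.37e-07), 1.63 ± 0.14 (adjusted p = 5.60e-08) and 1.04 ± 0.14 (adjusted p = 9.86e-06) at the 3 times. From 30 to 60 days Timp2 fell by 0.59 (SE 0.13, adjusted p = 0.00512), with no overlap between the groups.

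Timp3, the inhibitor that binds to the matrix and blocks ADAMTS proteases as well as MMPs, measured 57.5, 76.8, 82.1 and 56.2 CPM at 0 days, 33.4, 27.8, 36.6 and 29.0 at 10 days, 38.1, 39.1, 44.4 and 43.1 at 30 days, and 88.4, 69.5, 61.7 and 78.2 at 60 days. The 10- and 30-day libraries all lay below the control libraries, and the 60-day libraries overlapped the control range. The log2 difference from control was -1.11 ± 0.14 (adjusted p = 2.66e-06), -0.73 ± 0.13 (adjusted p = 0.000191) and 0.13 ± 0.13 (adjusted p = 0.423). With library totals the 30-day difference of Timp3 was -0.23 and not called (adjusted p = 0.117), and the 60-day difference was 0.54 and called higher (adjusted p = 0.00184). Timp4, the inhibitor known for its abundance in heart and skeletal muscle, had the largest fall against 0 days among the 26 genes. It measured 38.1, 36.0, 33.6 and 30.1 CPM at 0 days, 7.28, 8.18, 7.51 and 7.50 at 10 days, 13.1, 14.1, 13.3 and 7.80 at 30 days, and 24.4, 36.3, 27.8 and 29.4 at 60 days. At 10 days the 4 libraries differed little and were 4.52-fold below control (-2.18 ± 0.16, adjusted p = 7.21e-09). At 30 days Timp4 was still 2.84-fold lower (-1.50 ± 0.15, adjusted p = 4.23e-07), with library 4 near the 10-day level. At 60 days the groups overlapped and the difference was -0.22 ± 0.15 (adjusted p = 0.207), or 0.19 with library totals (adjusted p = 0.292).

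Timp3 and Timp4 rose again after 10 days. Timp3 was higher by 0.38 at 30 than at 10 days (adjusted p = 0.0301) and by 0.86 ± 0.13 at 60 than at 30 days (adjusted p = 0.00042), a total of 1.23 ± 0.14 between 10 and 60 days (adjusted p = 1.21e-06). The first of these steps was not called without 10-day library 2 or 4 or 30-day library 3 or 4, where the adjusted p ran from 0.0649 to 0.0906, nor with library totals (0.21, adjusted p = 0.214). For Timp4 the steps were 0.67 ± 0.16 (adjusted p = 0.00219) and 1.28 ± 0.15 (adjusted p = 4.34e-05), and 1.95 ± 0.16 from 10 to 60 days (adjusted p = 6.05e-08). In the RefSeq annotation Timp1, Timp3 and Timp4 lie within the synapsin genes Syn1, Syn3 and Syn2, and reads of overlapping genes cannot be told apart without strand, whose use in the counting is not given in the sources used here. Syn1 had 12 to 41.0 fragments per group of 4 libraries, Syn3 25 to 38 and Syn2 31.0 to 71.0. Timp1 and Timp4 are also the 2 members whose deposited counts are not all whole numbers.

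Most markers of vessel cells and muscle fibres were, like Timp3 and Timp4, lower at 10 days and higher at 60 than at 10 days. Those of fat cells rose between 10 and 60 days. Among all genes tested, 29.4% were lower at 10 days and 29.1% higher from 10 to 60 days. Of 6 endothelial markers, 6 were lower at 10 days than in control muscle and 6 higher at 60 than at 10 days, with sums of 307 to 362, 174 to 261, 259 to 291 and 276 to 419 CPM in the order of the times. Of 6 smooth muscle and pericyte markers, 5 were lower at 10 days and 5 higher from 10 to 60 days, with sums of 335 to 434, 135 to 209, 227 to 270 and 256 to 483 CPM. Of 6 adipocyte markers, 1 was lower at 10 days and 6 were higher from 10 to 60 days, with sums of 196 to 247, 88.5 to 157, 148 to 199 and 238 to 455 CPM. The fall of this sum at 10 days was mostly that of Fabp4, from 163 to 209 CPM at 0 days to 60.3 to 111 at 10 days. Plin1, Adipoq, Cidec, Lep and Cfd overlapped control at 10 days. Of 7 muscle fibre markers, 6 were lower and 1 higher at 10 days, and 5 were higher and 1 lower from 10 to 60 days. From 10 to 30 days 6 of these fibre markers were higher, and from 30 to 60 days none was higher and 1 lower. Their sum at 60 days, 117692 to 140208 CPM, stayed below the control range of 213362 to 235494. Endothelial markers had 2 and then 4 higher in these steps. Smooth muscle and pericyte markers had 3 higher and 1 lower, then 3 higher. Of all genes tested, 23.0% were higher and 24.3% lower in the first step, and 10.3% and 12.4% in the second. No marker of these lists was at 0 in a whole group. Their part in the levels of Timp3 and Timp4 was not tested.

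**Figure D2:**
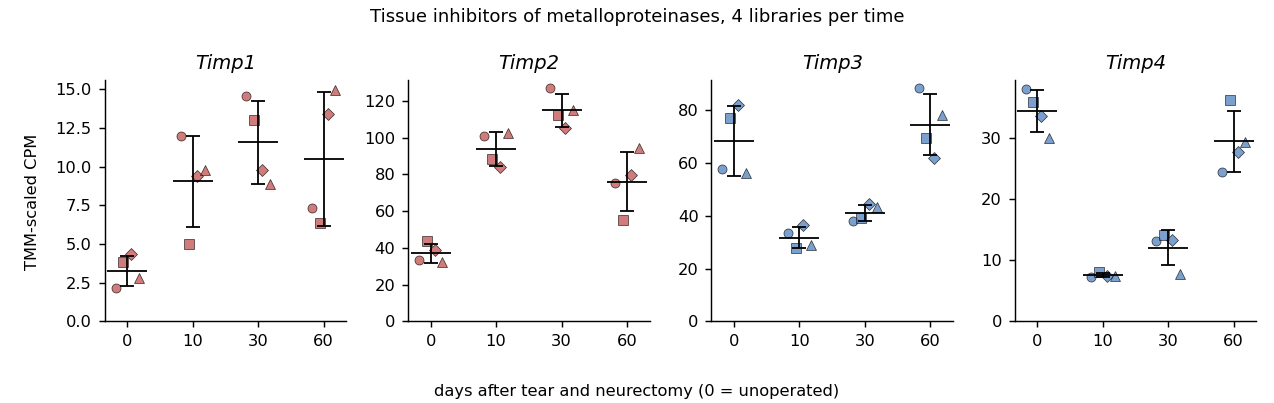
TMM-scaled CPM (vertical axis) of Timp1 to Timp4 at 0, 10, 30 and 60 days. Each symbol is 1 library, with its shape giving the library number (circle 1, square 2, diamond 3, triangle 4). Horizontal bars are means and vertical bars the SD of 4 libraries. Timp1 and Timp2 (red) lie above control at each time, and Timp3 and Timp4 (blue) are lowest at 10 days and overlap control at 60 days.

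The gelatinases Mmp2 and Mmp9 and the membrane-type protease Mmp14 were higher at all 3 times. Mmp2, the gelatinase made mainly by connective tissue cells, measured 28.8, 54.2, 43.6 and 37.8 CPM at 0 days, 124, 56.3, 88.4 and 98.8 at 10 days, 86.1, 127, 133 and 101 at 30 days, and 90.5, 85.6, 129 and 153 at 60 days. The groups did not overlap with control, although 10-day library 2, at 56.3, lay just above the highest control library. Mmp2 was higher by 1.16 ± 0.25 (adjusted p = 0.000819), 1.44 ± 0.25 (adjusted p = 0.000133) and 1.47 ± 0.25 (adjusted p = 0.000147) at 10, 30 and 60 days. Mmp14, the surface protease that activates the Mmp2 precursor, measured 7.37, 14.0, 10.8 and 7.23 CPM at 0 days, 49.8, 16.4, 35.5 and 38.4 at 10 days, 20.9, 32.9, 29.7 and 20.9 at 30 days, and 21.2, 13.9, 23.4 and 29.1 at 60 days. Its means were highest at 10 days, 35.0 ± 13.9 (SD, n = 4), and 60-day library 2 lay within the control range. The log2 difference was 1.82 ± 0.32 (adjusted p = 0.000122), 1.39 ± 0.31 (adjusted p = 0.00118) and 1.14 ± 0.32 (adjusted p = 0.00606), and no later time was called different from 10 days.

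Mmp9, the gelatinase typical of neutrophils, macrophages and osteoclasts, was close to absent in unoperated muscle, with 5 fragments over 4 libraries against 277, 141 and 38 at 10, 30 and 60 days. It measured 0, 0.0367, 0 and 0.192 CPM at 0 days, 2.23, 0.723, 3.82 and 1.91 at 10 days, 0.106, 2.09, 1.36 and 0.643 at 30 days, and 0.323, 0.393, 0.409 and 0.755 at 60 days. The 10-day libraries were all above control, and 30-day library 1 fell within the control range. The fitted difference was 5.14 ± 0.94 (adjusted p = 0.000181), 4.14 ± 1.00 (adjusted p = 0.00189) and 2.97 ± 1.16 (adjusted p = 0.0372). The 60-day call of Mmp9 was lost without 0-day library 1, 2 or 3 or 60-day library 2, 3 or 4 (adjusted p = 0.0505 to 0.109). Between 10 and 60 days Mmp9 fell by 2.18 (SE 0.67, adjusted p = 0.0107).

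Mmp12, the macrophage metalloelastase, and Mmp13, the main interstitial collagenase of rodents, had 2 and 0 fragments in the 4 unoperated libraries together and, like Mmp9, were higher at each time. Mmp12 measured 0, 0.0367, 0 and 0.0479 CPM at 0 days, 7.86, 3.94, 17.0 and 7.50 at 10 days, 0.142, 10.9, 3.08 and 2.29 at 30 days, and 2.26, 0.953, 3.10 and 11.9 at 60 days. All operated libraries lay above control, and within the 30-day group the libraries ranged from 0.142 to 10.9 CPM. The summed fragments were 2 at 0 days and 1151, 598 and 386 afterwards. Scaled for depth, the ratio to control was 398 at 10 days (95% counting interval 110 to 3289), 220 at 30 days (60.6 to 1818) and 215 at 60 days (59.2 to 1785), intervals that cover counting error only. The tests gave adjusted p = 0.00026, 0.0014 and 0.00151. No difference in Mmp12 between the operated times was called.

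Mmp13 falls below the 1 CPM set for giving single libraries, and its values, chosen after they were seen, are given because it was absent from control muscle. It had no fragment in any unoperated library, and measured 2.84, 1.35, 3.46 and 1.41 CPM at 10 days, 0.46, 1.09, 1.60 and 0.201 at 30 days, and 0.184, 0, 0.818 and 0.0444 at 60 days. The 10-day libraries were all above the 60-day ones. Its summed fragments were 290, 104 and 19, which against a floor of 3 fragments over the control group is at least 66.8-fold higher at 10 days (adjusted p = 0.000196), at least 25.5-fold at 30 days (adjusted p = 0.00221) and at least 7.07-fold at 60 days (adjusted p = 0.0466). The 60-day call was lost without any single 0-day library, 10-day library 1 or 2, 30-day library 1, or 60-day library 1 or 3 (adjusted p = 0.05 to 0.163). Library 3 held 14 of the 19 fragments at 60 days. The call was also lost with limma-voom, no filter, the 2 groups alone, a term for the title letter and thinned counts (adjusted p = 0.0551 to 0.0855). From 10 to 60 days Mmp13 fell by 3.18 (SE 0.79, adjusted p = 0.00375). Bone and cartilage cells also make Mmp13: the 8 of 9 markers of these cells in the table summed to 7.47 to 9.90 CPM at 0 days, 22.4 to 46.9 at 10 days, 29.5 to 55.6 at 30 days and 20.5 to 42.3 at 60 days. At 60 days the sum was highest in library 4, at 42.3 CPM, of which Ctsk made up 32.1, and Mmp13 was at 0.0444 CPM there. Single markers differed in this group. Bglap and Ibsp were highest in library 3, at 3.74 and 0.643 CPM, where Mmp13 was highest too, at 0.818 CPM. Acan, Col2a1, Acp5 and Ctsk were highest in library 4, Comp in library 1 and Sp7 in library 2. The part of such cells in the level of Mmp13 was not tested. Mmp3 (stromelysin 1), too low for a described change, had 0, 55, 12 and 7 fragments at 0, 10, 30 and 60 days.

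**Figure D3:**
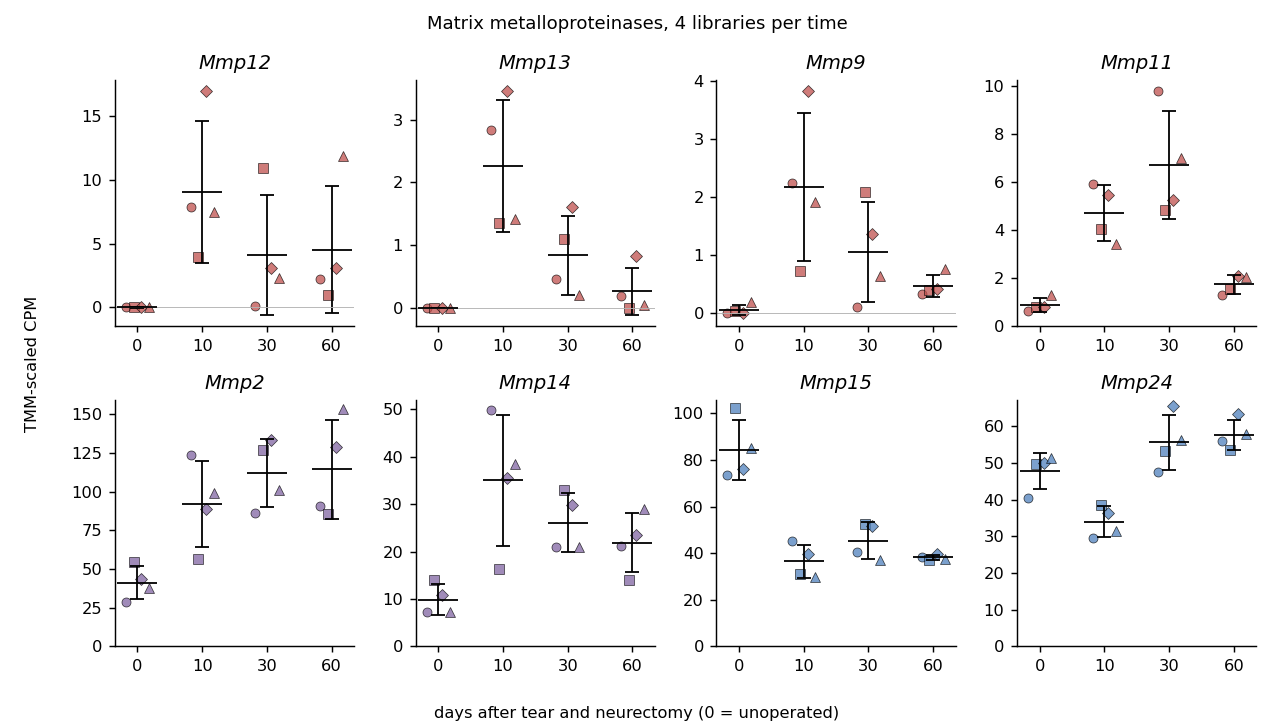
TMM-scaled CPM (vertical axis) of 8 Mmp genes at 0, 10, 30 and 60 days. Each symbol is 1 library, with its shape giving the library number (circle 1, square 2, diamond 3, triangle 4), horizontal bars are means and vertical bars the SD of 4 libraries. Mmp12, Mmp13 and Mmp9 are at or near 0 in unoperated muscle and have their highest mean at 10 days, Mmp11 has its highest mean at 30 days, and Mmp15 is below control at each time.

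Mmp11 (stromelysin 3), a protease typical of fibroblasts in remodelling tissue, rose and then mostly returned. It measured 0.618, 0.807, 0.803 and 1.29 CPM at 0 days, 5.92, 4.07, 5.47 and 3.41 at 10 days, 9.81, 4.87, 5.28 and 6.995 at 30 days, and 1.29, 1.57, 2.104 and 2.04 at 60 days. The 10- and 30-day libraries all lay above both the 0- and the 60-day libraries. Mmp11 was higher than control by 2.41 ± 0.29 (adjusted p = 1.65e-06), 2.92 ± 0.29 (adjusted p = 2.43e-07) and 0.98 ± 0.31 (adjusted p = 0.0126), and fell by 1.94 from 30 to 60 days (SE 0.27, adjusted p = 0.000135). In the RefSeq annotation Mmp11 overlaps Chchd10, a mitochondrial protein gene with 68978 fragments at 0 days and 23385, 33945 and 33076 at 10, 30 and 60 days. Reads from the shared stretch could have been counted for either gene, and Chchd10 had its highest sum at 0 days, where Mmp11 was lowest.

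Mmp19 and Mmp23, less studied members, were also higher at each time. Mmp19 measured 0.731, 1.03, 1.03 and 1.20 CPM at 0 days, 3.8003, 1.94, 2.8004 and 3.69 at 10 days, 3.68, 3.13, 3.12 and 2.41 at 30 days, and 1.98, 1.74, 2.40 and 3.15 at 60 days, with no overlap with control. Its difference was 1.61 ± 0.25 (adjusted p = 3.36e-05), 1.62 ± 0.25 (adjusted p = 3.57e-05) and 1.21 ± 0.26 (adjusted p = 0.000879). Mmp23 had its highest mean, 5.75 CPM, at 30 days. It measured 1.01, 2.31, 1.25 and 1.87 CPM at 0 days, 3.66, 1.91, 2.504 and 2.98 at 10 days, 4.50, 6.36, 7.64 and 4.50 at 30 days, and 3.96, 3.25, 4.97 and 5.87 at 60 days. At 10 days Mmp23 overlapped control and was higher by 0.76 ± 0.28 (adjusted p = 0.0278), a call lost without 0-day library 1 or 3 or 10-day library 1 or 4 (adjusted p = 0.0576 to 0.0972). It was then higher than at 10 days by 1.05 ± 0.26 at 30 days (adjusted p = 0.00309), and stood above control by 1.81 ± 0.28 at 30 days (adjusted p = 3.04e-05) and 1.46 ± 0.28 at 60 days (adjusted p = 0.000355).

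The membrane-type members did not move together. Beside Mmp14, Mmp17 was higher at 30 days by 1.27 ± 0.29 (adjusted p = 0.00119) and at 60 days by 1.22 ± 0.30 (adjusted p = 0.00236), from a mean of 1.26 CPM at 0 days to 3.09 and 2.97. Mmp16, with means of 0.203, 0.411, 0.611 and 0.251 CPM, was called at 30 days only (1.57 ± 0.58, adjusted p = 0.0242), and not without 0-day library 2 or 30-day library 2 (adjusted p = 0.0515 to 0.0563). Mmp15 was lower at each time. It measured 73.7, 102, 76.1 and 85.2 CPM at 0 days, 45.1, 31.2, 39.6 and 29.9 at 10 days, 40.3, 52.5, 51.6 and 36.9 at 30 days, and 38.3, 37.3, 39.4 and 37.6 at 60 days, all below control. Its difference was -1.21 ± 0.14 (adjusted p = 1.67e-06), -0.89 ± 0.14 (adjusted p = 4.26e-05) and -1.14 ± 0.14 (adjusted p = 5.74e-06), and it stayed lower with library totals (-0.55, -0.41 and -0.74). Mmp24 had means of 47.9, 34.0, 55.7 and 57.7 CPM. It was lower at 10 days by TMM scaling (-0.50 ± 0.11, adjusted p = 0.000704), which turned to 0.16 with library totals (adjusted p = 0.133). At 60 days Mmp24 was higher by 0.27 ± 0.11 (adjusted p = 0.0403), a call lost without 0-day library 1 or 60-day library 3 or 4 (adjusted p = 0.0531 to 0.115).

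Among the ADAMTS proteases, Adamts14 and Adamts2 remove the amino-terminal propeptide from fibrillar procollagens, and they followed different courses. Adamts14 measured 1.01, 2.05, 1.74 and 0.958 CPM at 0 days, 8.53, 15.3, 8.99 and 9.16 at 10 days, 8.04, 4.89, 4.60 and 3.90 at 30 days, and 3.73, 2.19, 2.34 and 2.75 at 60 days. Each operated library was above every control library, and the 10-day libraries were above all others. Adamts14 was higher by 2.83 ± 0.30 (adjusted p = 4.77e-07), 1.86 ± 0.30 (adjusted p = 5.08e-05) and 0.91 ± 0.32 (adjusted p = 0.0204). It fell by 0.97 from 10 to 30 days (SE 0.26, adjusted p = 0.00609) and by 0.95 from 30 to 60 days (SE 0.28, adjusted p = 0.0238). The 60-day call against control was lost without 0-day library 1 or 4 or 60-day library 1 (adjusted p = 0.0515 to 0.0716), and the last step without 30-day library 1 or 60-day library 2, 3 or 4 (adjusted p = 0.051 to 0.0941). Adamts2 had means of 5.49 ± 1.63, 7.53 ± 2.76, 10.2 ± 2.17 and 12.7 ± 2.56 CPM (SD, n = 4 each). At 10 days its difference of 0.45 missed the threshold (adjusted p = 0.147), and it was higher by 0.88 ± 0.26 at 30 days (adjusted p = 0.00761) and 1.20 ± 0.26 at 60 days (adjusted p = 0.00106).

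Of the 5 described proteoglycan-cleaving members, Adamts1, Adamts4, Adamts5, Adamts9 and Adamts15, 2 were higher and 2 lower at 10 days. Adamts1 fell most. It measured 48.9, 71.0, 60.9 and 47.3 CPM at 0 days, 22.4, 11.6, 30.0 and 18.5 at 10 days, 19.3, 27.3, 25.0 and 19.4 at 30 days, and 33.1, 34.5, 22.6 and 38.3 at 60 days, below control in each operated library. Its difference was -1.47 ± 0.24 (adjusted p = 6.51e-05), -1.32 ± 0.24 (adjusted p = 0.00018) and -0.83 ± 0.24 (adjusted p = 0.00728), and the last was -0.41 and not called with library totals (adjusted p = 0.141). Adamts9 was lower at 10 days only (means of 12.0 and 7.09 CPM, -0.76 ± 0.16, adjusted p = 0.000636), which was -0.10 and not called with library totals (adjusted p = 0.603). Adamts15 was higher at each time, by 0.84 ± 0.23 (adjusted p = 0.00435), 0.90 ± 0.23 (adjusted p = 0.00268) and 1.17 ± 0.23 (adjusted p = 0.000445), from a mean of 4.86 CPM to 8.71, 9.05 and 10.9.

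Adamts4 and Adamts5, known as the aggrecanases, were called at different times. Adamts4 had means of 0.936 ± 0.345, 2.05 ± 0.438, 1.64 ± 0.715 and 1.06 ± 0.284 CPM (SD, n = 4 each) and was higher at 10 days by 1.11 ± 0.34 (adjusted p = 0.00842). Its 30-day call (0.81 ± 0.34, adjusted p = 0.0458) was lost in 10 of the 16 fits that left out 1 library (without 0-day library 1, 3 or 4, 10-day library 3 or 4, 30-day library 1, 2 or 3, or 60-day library 2 or 3, adjusted p = 0.0501 to 0.166). Adamts5 had means of 3.16, 2.48, 3.45 and 4.81 CPM and was higher at 60 days by 0.60 ± 0.22 (adjusted p = 0.025), a call lost without 0-day library 1 or 60-day library 3 or 4 (adjusted p = 0.0537 to 0.0667). From 10 to 60 days Adamts5 rose by 0.95 (adjusted p = 0.00116).

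The 3 remaining described members were Adamts7, Adamts10 and Adamts12. Adamts10, which binds fibrillin microfibrils, had means of 17.7, 23.5, 37.0 and 38.5 CPM. It was higher than control by 0.40 ± 0.14 at 10 days (adjusted p = 0.0186), 1.06 ± 0.14 at 30 days (adjusted p = 6.51e-06) and 1.12 ± 0.14 at 60 days (adjusted p = 5.67e-06). The 10-day call was lost without 0-day library 1 or 10-day library 1 (adjusted p = 0.0585 to 0.0642), whereas the step of 0.66 from 10 to 30 days had adjusted p = 0.000892. Adamts7, which cuts cartilage oligomeric matrix protein, had means of 1.33, 2.34, 2.104 and 2.13 CPM and was called at 10 days (0.80 ± 0.32, adjusted p = 0.0392). Without 0-day library 1, 3 or 4 or 10-day library 1, 3 or 4 that call was lost (adjusted p = 0.0636 to 0.15). Adamts12, related to Adamts7, was called at 60 days (0.86 ± 0.27, adjusted p = 0.012), with means of 4.39 CPM at 0 and 8.05 at 60 days.

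**Figure D4:**
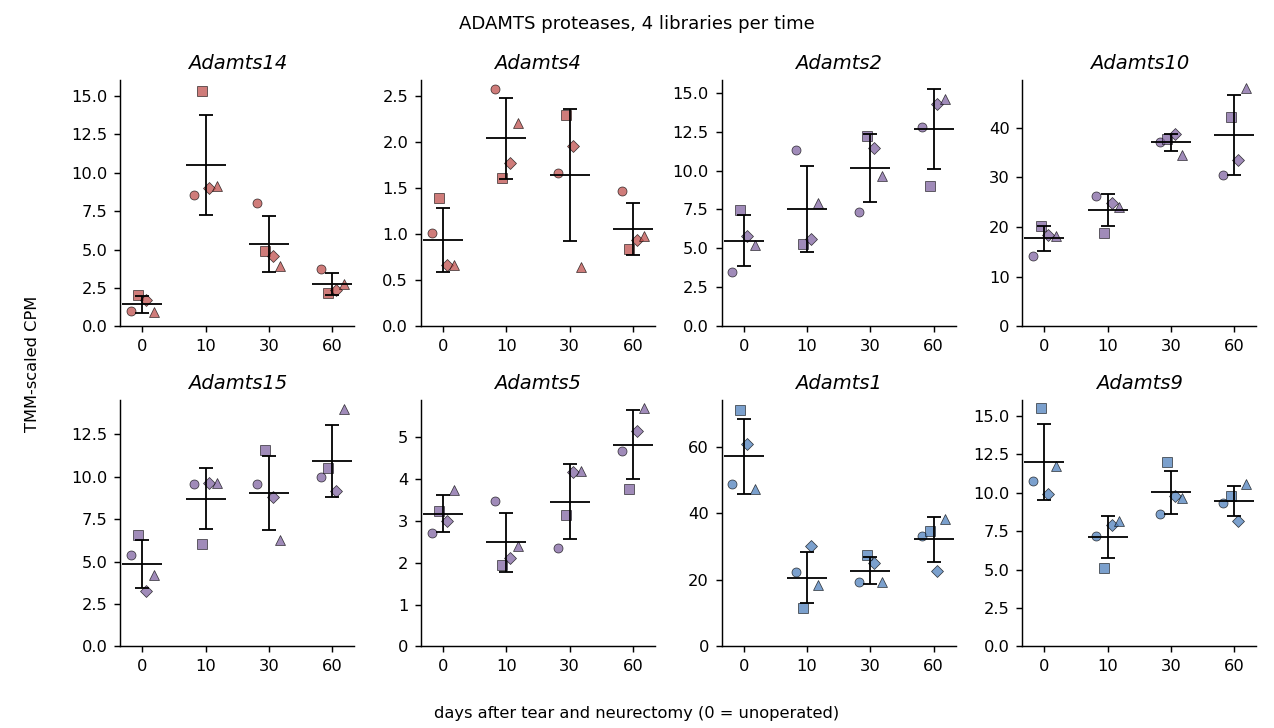
TMM-scaled CPM (vertical axis) of 8 Adamts genes at 0, 10, 30 and 60 days. Each symbol is 1 library, with its shape giving the library number (circle 1, square 2, diamond 3, triangle 4), horizontal bars are means and vertical bars the SD of 4 libraries. Adamts14 has its highest mean at 10 days, Adamts2, Adamts5, Adamts10 and Adamts15 have theirs at 60 days, and Adamts1 is below control at each time.

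Between the operated times fewer genes changed. From 10 to 30 days 6 of the 26 were higher (Adamts9, Adamts10, Mmp23, Mmp24, Timp3 and Timp4) and 1 lower (Adamts14), beside 23.0% and 24.3% of all genes tested. From 30 to 60 days 2 were higher (Timp3 and Timp4) and 3 lower (Adamts14, Mmp11 and Timp2), beside 10.3% and 12.4%. From 10 to 60 days 9 were higher and 5 lower, beside 29.1% and 31.9%. The 5 that were lower at 60 than at 10 days were Mmp9, Mmp11, Mmp13, Adamts4 and Adamts14, and the 9 higher were Timp3, Timp4, Mmp23, Mmp24, Adamts1, Adamts2, Adamts5, Adamts9 and Adamts10. The comparisons share libraries and are not independent of each other.

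The split between 10 and 60 days depended on the scaling and on 1 library. With library totals 5 were higher and 8 lower, so that the share of higher calls went from 64.3% to 38.5%, and without 10-day library 2 the counts were also 5 and 8. From 10 to 30 days library totals gave 4 higher and 2 lower, a share of 66.7% in place of 85.7%. Without 10-day library 1 there were 10 higher from 10 to 30 days, and 3 were lower without 30-day library 2 and 2 without 30-day library 3 or 60-day library 3. The directions of Timp3 and Timp4 from 10 to 60 days (0.98 and 1.71 with library totals) and of Mmp11 (-1.68), Mmp13 (-3.45), Mmp9 (-2.43), Adamts4 (-1.20) and Adamts14 (-2.17) held under that scaling and were called. Smaller rises from 10 to 60 days depended on single libraries: Adamts1 (0.64, adjusted p = 0.0288) was not called without 10-day library 2 or 4 or 60-day library 1, 2 or 4 (adjusted p = 0.059 to 0.078), nor Adamts9 (0.42, adjusted p = 0.0365) without 10-day library 1 or 2 or 60-day library 1, 2 or 4 (adjusted p = 0.0503 to 0.121). Adamts2 (0.75, adjusted p = 0.0177) was not called without 10-day library 2 or 3 (adjusted p = 0.0565 to 0.0582), nor Mmp23 (0.71, adjusted p = 0.0287) without 10-day library 2 or 3 or 60-day library 3 or 4 (adjusted p = 0.0641 to 0.094). The fall of Adamts4 (adjusted p = 0.0225) was not called without 10-day library 1 or 60-day library 2, 3 or 4 (adjusted p = 0.0538 to 0.0649), and the 10- to 30-day rise of Adamts9 (0.50, adjusted p = 0.0174) was not called without 10-day library 2 or 30-day library 2 (adjusted p = 0.0606 to 0.0695).

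The ratio of 2 genes within a library does not depend on scaling, and it was compared between libraries as a description. The fragments of Mmp2 per fragment of Timp3 were 0.5005 to 0.706 in the unoperated libraries, 2.03 to 3.71 at 10 days, 2.26 to 3.25 at 30 days and 1.02 to 2.08 at 60 days. Every operated library lay above control. Mmp2 per Timp2, in contrast, had means of 1.10 ± 0.167, 0.970 ± 0.247, 0.990 ± 0.261 and 1.498 ± 0.201 (SD, n = 4 each), and all 4 groups overlapped. Mmp14 per Timp4 had means of 0.286, 4.67, 2.21 and 0.771 in the order of the times, and 60-day library 2, at 0.383, lay within the control range of 0.194 to 0.390. Timp1 per Timp4 went from a mean of 0.0962 to 1.20, 0.976 and 0.366.

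Libraries of 1 time differed in many of these genes at once. Library 2 of the 10-day group was the lowest of its group for 20 of the 26 genes and the highest for 3, among them Adamts14. Its 8 fibroblast markers summed to 882 CPM, beside 1342 to 2503 in the other 10-day libraries. Col1a1 (256 CPM beside 509 to 1150) and Col3a1 (248 beside 443 to 823) made up most of this gap. Pdgfra, Lum and Thy1 were also lowest in library 2 of this group. Pi16 was highest there, at 12.3 CPM, and Dcn and Dpt were lowest in library 3. The fibroblast markers as a whole summed to 475 to 994 CPM at 0 days, 882 to 2503 at 10 days, 1454 to 2300 at 30 days and 1367 to 2864 at 60 days. Without 10-day library 2, 18 genes were higher and 6 lower at 10 days, 19 and 4 at 30 days, and 17 and 3 at 60 days. The part of fibroblast number in these levels was not tested.

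Most macrophage markers were also higher after the operation. Of 10 listed, 9 are in the table, none of them at 0 in any group, and they summed to 34.2 to 50.4 CPM at 0 days, 108 to 143 at 10 days, 134 to 175 at 30 days and 115 to 215 at 60 days. Of the 9, 7 were higher at 10 days and all 9 at 30 and 60 days. Among all genes tested, 33.3%, 33.7% and 29.9% were higher at these times. Cd14 and Cd163 overlapped control at 10 days. Lyz2 was the largest part of the sum at 10 days, at 40.3 to 68.0 CPM beside 16.5 to 18.4 at 0 days. In 30-day library 1 the macrophage sum was 170 CPM, while Mmp12 was at 0.142 and Mmp9 at 0.106 CPM. In 30-day library 2, with a sum of 175 CPM, Mmp12 was at 10.9 and Mmp9 at 2.09 CPM. The 60-day library with the largest macrophage sum, library 4 at 215 CPM, also had the highest Mmp12 of its group, 11.9 CPM. The 8 neutrophil markers summed to 1.34 to 1.57 CPM at 0 days, 3.89 to 9.13 at 10 days, 3.32 to 8.93 at 30 days and 1.98 to 4.53 at 60 days. Every operated library lay above control in this sum. At 10 days S100a8 was its largest part, at 2.38 to 7.72 CPM beside 0 to 0.110 at 0 days. S100a9, Csf3r and Cxcr2 overlapped between 0 and 10 days. Mpo was lower at 10 days, at 0.0290 to 0.0659 CPM beside 0.0958 to 0.367 at 0 days. Of the 3 neutrophil markers that could be tested, 2 were higher at 10 days, 1 at 30 days and 2 at 60 days, while Elane and Camp were at 0 at 0 and 10 days. The part of macrophages and neutrophils in the levels of Mmp9 and Mmp12 was not tested.

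**Figure D5:**
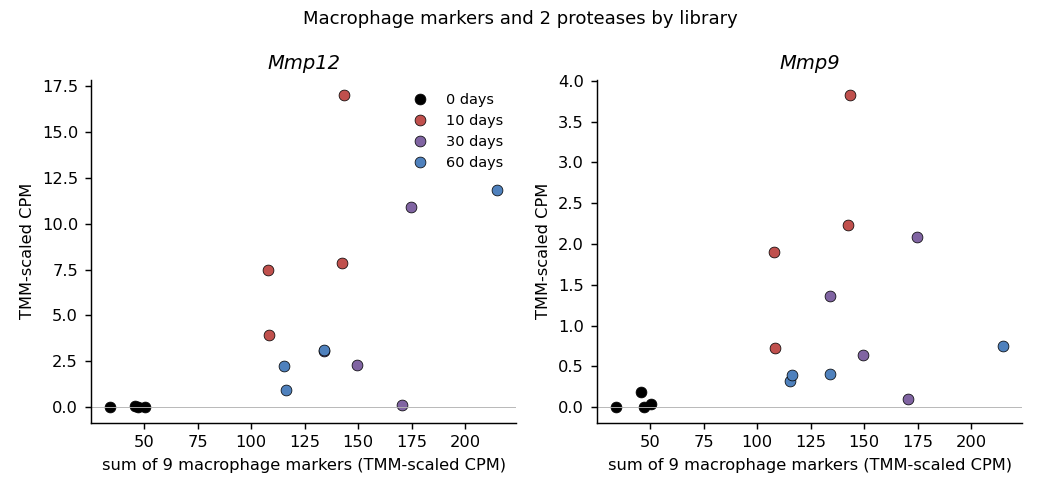
TMM-scaled CPM of Mmp12 (left) and Mmp9 (right) on the vertical axis against the summed CPM of 9 macrophage markers on the horizontal axis, with 1 point per library coloured by time. The 4 unoperated libraries sit at the lower left. Among operated libraries with sums of 108 to 215 CPM, Mmp12 ranges from 0.142 to 17.0 CPM.

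The 10 detected genes below the described level add little signal. Summed over the 4 libraries of each time, Adamts18 had 1, 23, 9 and 4 fragments, Adamts19 25, 16, 11 and 14, and Adamts3, the other procollagen-processing member, 10, 14, 28 and 26. Mmp7 (matrilysin) had 4, 13, 6 and 10, Mmp8 (neutrophil collagenase) 1, 6, 7 and 6, Mmp10 (stromelysin 2) 2, 7, 6 and 0, and Mmp27 8, 3, 13 and 12. Mmp20, the enamel protease, had 1 fragment in all and Mmp21 had 3. Within the chromosome 8 block, then, Mmp12 and Mmp13 passed the described level and the other 7 genes did not.

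Genes that act with these proteases were counted from lists. Of 13 tested proteoglycans and matrix glycoproteins that they cut, 10 were higher at 10 days, 13 at 30 days and 10 at 60 days, and none was lower. Among all genes tested, 33.3%, 33.7% and 29.9% were higher at these times. The median log2 difference was 1.81, 1.67 and 1.40. Spp1 (osteopontin) was higher by 3.63 (adjusted p = 0.000144), 3.14 (adjusted p = 0.000511) and 2.00 (adjusted p = 0.0146). Comp (cartilage oligomeric matrix protein) was higher by 2.87, 2.99 and 2.14 (adjusted p = 8.26e-07, 6.83e-07 and 3.92e-05). Tnc (tenascin C) was higher by 2.81 at 10 days and 1.87 at 30 days (adjusted p = 0.000467 and 0.0089), and the 60-day value of 1.16 missed the threshold (adjusted p = 0.097).

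Of 13 tested genes for protease activation and other inhibitors, 3 were higher and 4 lower at 10 days, 6 and 2 at 30 days, and 6 and 1 at 60 days. At 10 days that is 23.1% higher and 30.8% lower, beside 33.3% and 29.4% of all genes tested. At 30 and 60 days it is 46.2% higher each, beside 33.7% and 29.9%. Lrp1, the receptor that takes up MMP and TIMP complexes, was higher by 1.08, 1.22 and 1.21 (adjusted p = 7.50e-07, 2.73e-07 and 4.70e-07). Bsg (basigin, an inducer of MMPs) was higher by 1.19 at 10 days (adjusted p = 1.65e-07) and 0.59 at 30 days (adjusted p = 0.000277), and its 60-day value of -0.23 missed the threshold (adjusted p = 0.0952). Serpine2 (protease nexin 1) was lower at 10 days (-1.04, adjusted p = 3.25e-05), and was not called at 30 or 60 days (-0.21 and 0.08, adjusted p = 0.25 and 0.669).

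The 3 ADAMTS-like genes, which lack a protease domain, were all lower at 10 days, 1 was lower at 30 days and 2 were higher at 60 days. Of all genes tested, 29.4% and 30.9% were lower at 10 and 30 days, and 29.9% were higher at 60 days. Adamtsl4 differed from control by -1.71, -0.18 and 0.85 (adjusted p = 3.94e-06, 0.455 and 0.00232), Adamtsl5 by -1.48, -0.36 and 0.08 (adjusted p = 6.84e-08, 0.0199 and 0.62), and Adamtsl3 by -0.55, 0.25 and 0.62 (adjusted p = 0.0188, 0.25 and 0.00921). Of 6 membrane-bound ADAM proteases, 2 were higher and 1 lower at each time, which is 33.3% and 16.7% and for the higher calls near the share among all genes tested. Adam19 (meltrin beta) was higher by 4.96, 4.46 and 2.19 (adjusted p = 5.52e-09, 1.83e-08 and 1.96e-05). Adam9 was not called at 10 days (-0.26, adjusted p = 0.163) and was lower at 30 and 60 days (-1.30 and -1.54, adjusted p = 4.31e-06 and 1.23e-06), and Adam15 was lower at 10 days (-0.60, adjusted p = 0.000518). Of 16 tested inducers and AP-1 subunits, 11 were higher and 2 lower at 10 days, 10 were higher at 30 days and 7 at 60 days. Among all genes tested, 33.3%, 33.7% and 29.9% were higher at these times, and 29.4% were lower at 10 days. Tgfb2 was higher by 2.35, 1.79 and 1.04 (adjusted p = 3.21e-06, 4.81e-05 and 0.00463) and Tgfb1 by 1.08, 1.72 and 1.05 (adjusted p = 5.75e-06, 4.56e-08 and 1.50e-05). Fos, an AP-1 subunit, was lower at 10 days (-2.25, adjusted p = 0.0138), with libraries that overlapped between 6.47 and 110 CPM at 0 days and 5.78 and 15.5 CPM at 10 days. Other AP-1 subunits lay above control in every 10-day library. Jun was at 358 to 515 CPM beside 188 to 307 at 0 days, and Junb at 43.7 to 60.5 beside 13.7 to 30.2. Fosl2 was at 6.61 to 9.98 beside 1.39 to 3.15, and Fosl1 at 1.16 to 1.54 beside 0.477 to 0.892. Jund and Fosb overlapped control at 10 days, as Fos did.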

How the data were processed

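Total RNA of 16 supraspinatus samples was extracted with a miRNeasy kit and made into TruSeq mRNA v2 libraries, per the labels' protocols. The authors deposited 1 table of expected counts, the raw fragments per gene from Cuffdiff 2.1.1, per the file headers and the submitters' processing notes. These notes also name bcl2fastq 1.8.4, FastQC, TopHat2 2.0.9, Bowtie2 2.1.0.0, Cufflinks and build rn5. The annotation, strandedness and handling of multiple hits are not given in the sources used here. Of the 17147 genes, 233 have a fractional value, and values were rounded to whole counts.

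Genes were filtered with filterByExpr by group, leaving 11658. One model of the 4 groups was fitted with edgeR 4.0.16 (R 4.3.3, TMM factors, robust quasi-likelihood), with Benjamini-Hochberg adjustment over these genes for each of 6 pairwise contrasts and a joint test. The common biological coefficient of variation was 0.150. Replicates differed beyond counting noise (chi-square per gene 13.9 to 107), so none was merged. On simulated counts with 200 genes changed 2-fold between 10 and 0 days among 11515 genes, the fit called 156 of them and 6 others. All other genes were left unchanged in the simulation, so it lacks the wide change between groups of the real data. It therefore does not measure false calls under such a change.

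The members, gene lists, motifs and rules were chosen with earlier results of these data known. Values of single libraries are given for the Timp genes, Mmp2, Mmp9, Mmp14 and the members with the 10 largest called differences against 0 days and a mean of at least 1 CPM. Those of Mmp13, Mmp15 and Adamts1 were added after their values were seen. Up to 3 genes per pathway list are named, those with the largest called differences and a mean of at least 5 CPM. The other AP-1 subunits were added after their values were seen. Alternatives tried were RLE, upper-quartile and plain library-total scaling, DESeq2 1.42.0, limma-voom (limma 3.58.1), no filter, a minimum of 1 CPM, no robust step, 2 groups alone, thinned counts, adjusted p under 0.01, the replicate block, a term for the title letter, and fits that dropped 1 library each. Promoters and gene overlaps came from RefSeq tables of build GRCr8. One such overlap is not reported here.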

Additional observations from a re-analysis of the deposited data

Results flagged for a closer look

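In 6 of 103 groups of 4 libraries with a tested member, 1 library stood far from the other 3, where chance gives about 1 in 20. Adamts14 was at 15.3 CPM in 10-day library 2 (others 8.53 to 9.16), and Adamts15 was at 6.01 CPM in the same library (others 9.60 to 9.62). Timp4 was at 7.80 CPM in 30-day library 4 (others 13.1 to 14.1), and Mmp16 at 0.362 CPM in that library (others 0.673 to 0.720). Mmp24 was at 40.5 CPM in 0-day library 1 (others 49.7 to 51.3), and Adamts7 at 1.797 CPM in 0-day library 2 (others 1.16 to 1.20).

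The difference from unoperated muscle itself differed between times for several genes, as tested by the direct contrast of the operated groups with edgeR. Between 10 and 30 days the log2 difference was 0.66 for Adamts10, -0.97 for Adamts14, 0.50 for Adamts9, 1.05 for Mmp23, 0.71 for Mmp24, 0.38 for Timp3 and 0.67 for Timp4. Between 30 and 60 days it was -0.95 for Adamts14, -1.94 for Mmp11, -0.59 for Timp2, 0.86 for Timp3 and 1.28 for Timp4. Between 10 and 60 days the rises were 0.64 for Adamts1, 0.71 for Adamts10, 0.75 for Adamts2, 0.95 for Adamts5, 0.42 for Adamts9, 0.71 for Mmp23, 0.76 for Mmp24, 1.23 for Timp3 and 1.95 for Timp4. Over the same interval the difference was -1.92 for Adamts14, -0.94 for Adamts4, -1.43 for Mmp11, -3.18 for Mmp13 and -2.18 for Mmp9.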

How the results depend on the processing

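Of 104 results for single genes, DESeq2 and the fit without the robust step changed no call, RLE scaling changed 1, and limma-voom 6. Library totals changed most, turning 5 directions: Adamts5 at 10 days (0.31), Adamts9 at 30 and 60 days (0.23 and 0.069), Mmp24 at 10 days (0.16) and Timp4 at 60 days (0.19). The letter of the sample titles as a covariate turned Adamts5 at 30 days (-0.020). Leaving out 1 library gave -0.041 to 0.47 for Adamts4 at 60 days, negative without 60-day library 1, and -0.036 to 0.60 for Mmp16 at 60 days, negative without 60-day library 4. None of these 8 turned values was called.

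With library totals, 1 gene was lower at 60 days against 0 days, 2 were lower at 30 against 10 days, and 5 were higher and 8 lower at 60 against 10 days. At an adjusted p under 0.01, 11 were higher at 60 against 0 days, and 5 higher and 3 lower at 60 against 10 days. At 30 against 10 days 2 were lower with limma-voom and 3 with the title letter. The column numbers shared by the groups did not pair the libraries: deviations correlated at 0.0134 on average for the same number and -0.0041 for others. With the replicate block on these numbers, 2 were lower at 30 against 10 days, and 4 of the 104 gene calls changed. The cause of these moves was not tested, beyond fewer genes passing a stricter threshold.

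Leaving out each library in turn gave 23 to 26 genes called across the 4 times. Against 0 days it gave 12 to 18 higher and 6 to 7 lower at 10 days, 15 to 19 and 4 at 30 days, and 13 to 18 and 2 to 3 at 60 days. Between 10 and 30 days it gave 4 to 10 and 1 to 3, between 30 and 60 days 2 and 2 to 4, and between 10 and 60 days 5 to 9 and 4 to 8. Depth limits the members under 10 fragments per library and Mmp9, Mmp12 and Mmp13 in unoperated muscle, where a sum of a few fragments sets the fold.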
